A study of Mus musculus with 98 samples.

Results

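PrTEC are the proliferating thymic epithelial cells of the newborn mouse, and they were taken here as all cells that carry the authors' label PrTEC. The label was given to 487 of 21451 cells, and to 487 of 9083 cells of the 9 labels of thymic epithelium (TEC). The cells came from 6 libraries of sorted Ter119-CD45- thymic stroma at P0, the day of birth, fixed with RNAprotect and captured with the 10x 3′ chemistry, which counts each captured transcript once by its unique molecular identifier (UMI). 3 libraries were from Tbx1+/-Crkl+/- mice (HET) and 3 from wild-type (WT) littermates. HET mice carry 1 LacZ knock-in allele of Tbx1 and 1 null allele of Crkl in every cell, so a difference in TEC need not arise in TEC. The label PrTEC held 42, 114 and 55 cells in HET replicates 1 to 3 and 40 and 87 cells in WT replicates 1 and 2, and WT replicate 3 held the most. In a separate bulk experiment, cTEC and mTEC were sorted from WT mice at P0 and at 4 weeks (6 libraries each, 3 with TXCK and 3 with DFCK in the title, prefixes whose meaning is not given in the sources used here).

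TEC form the cortex, where cTEC select thymocytes that recognise self-MHC, and the medulla, where mTEC display tissue-restricted antigens under Aire and Fezf2 and attract thymocytes through the chemokine Ccl21. A dividing cell copies its DNA in S phase with the Mcm helicase, Pcna and nucleotide enzymes. It then prepares and carries out mitosis in G2 and M with topoisomerase Top2a, condensins, cyclin B, mitotic kinesins and centromere proteins. Promoters of G2/M genes are known to hold a cell cycle genes homology region (CHR) near the start and CCAAT boxes upstream of it, whereas many S phase genes hold E2F sites.

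The PrTEC cells held 128590, 408467 and 171031 UMIs in the HET libraries and 151254, 476940 and 890851 in WT. Their median depth was 2562, 2952.5 and 2956 UMIs per cell in HET and 2808, 4243 and 4815 in WT, so 2 of the 3 WT libraries were deeper than any HET library. 32 PrTEC cells lay under the study's stated minimum of 1000 genes. 44 cell barcodes occurred in 2 or more libraries, and 1 of them belonged to a PrTEC cell. Tbx1 had 0, 0 and 8 UMIs over all cells of the HET libraries and 13, 6 and 19 in WT, and 1 UMI in all PrTEC, so its dose could not be read in these cells. Crkl, an adaptor protein gene, had 24.1, 23.6 and 26.9 CPM (UMI counts scaled to a common library total) over all cells of the HET libraries against 23.0, 25.1 and 18.4 CPM in WT. The Crkl ranges overlapped, so the null allele was not seen as a lower 3′ count, and whether the allele still gives a 3′ tag is not given in the sources used here. In PrTEC alone Crkl had 1 to 8 UMIs per library. On these few UMIs it stood at 15.6, 19.6 and 29.2 CPM in HET and at 6.61, 12.6 and 7.86 CPM in WT, higher in every HET library.

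Levels are CPM of the UMIs summed over the cells of a label in a library, given as the mean ± SD over libraries with at least 10 such cells. The labels sTEC and TlTEC never reached 10 cells and were left out. Differences between labels are on the log2(CPM + 10) scale. The labels were drawn from the same transcripts, so PrTEC against the other TEC labels is a description without a test.

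The 2 genes that mark the label were high in every library. Mki67, which coats mitotic chromosomes, stood at 294 ± 74.4 CPM in PrTEC (n = 6) and at 32.8 ± 11.2 CPM in PcTEC, the perinatal cTEC. Top2a stood at 665 ± 260.0 CPM in PrTEC and at 49.8 ± 19.2 CPM in PcTEC. At least 1 UMI of Mki67 was found in 54.6% of PrTEC cells, against 9.99% of PcTEC. With each cell thinned to 2000 UMIs, which left 80.5% of PrTEC cells, the Mki67 share was 36.7% in PrTEC, 5.51% in PcTEC and 54.8% in Pr, the label of proliferating nonepithelial stroma. For Top2a the thinned shares were 45.4%, 7.66% and 71.9%. The epithelial identity of the label was plain. The pan-TEC list (11 genes) summed to 5635 ± 1354 CPM in PrTEC and to 737 ± 349 CPM in Pr. In other TEC labels its mean ran from 2238 CPM in PAmTEC to 8171 CPM in PcTEC and 10260 CPM in McTEC. Only 4 of the 11 genes were highest in PrTEC among the TEC labels. Epcam, an epithelial adhesion molecule, was at 1175 ± 332 CPM in PrTEC, at 442 ± 74.2 CPM in PcTEC, at 738 ± 167.5 CPM in MmTEC and at 51.8 ± 30.5 CPM in Pr.

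The 30 leading genes of PrTEC were those with the largest difference to the highest other TEC label among 4028 genes with a mean of at least 50 CPM. The values that chose them describe the label and are not a finding. The first was Cenpf, a kinetochore protein, at 886 ± 124.3 CPM, with a difference of 3.497 to nTEC. Next came Hmmr, a spindle protein, at 341 ± 64.7 CPM, Cdca8, of the chromosomal passenger complex, at 245.98 ± 73.1 CPM, and Knl1, a kinetochore scaffold, at 248 ± 69.5 CPM. Cdc20, which activates the anaphase-promoting complex, reached 282 ± 102 CPM and Ccnb1, cyclin B1, 209 ± 64.7 CPM. The last gene inside the 30 was Depdc1a with a difference of 2.35, and the first outside was Kif15 with 2.32. 20 of the 30 were members of the S phase, G2/M phase or cycle regulator lists. 24 of the 30 had a higher mean in Pr than in PrTEC.

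Promoters of leading genes were searched because the genes share a phase of the cycle. RefSeq windows of 300 bases (250 before to 50 after the start, build GRCm38.p6) were used for the 27 leading genes with 1 window. The letters TTTGAA (CHR) on either strand lay in 20 of these 27 windows, 74.1%, against 18.5% of 22862 genes with 1 window. CCAAT on either strand lay in 19, 70.4%, against 38.2%. Both lay in 16, 59.3%, against 7.21%. E2F letters were searched in 3 forms, TTTGGCGC as the first, TTTCGCGC as another and TTCCCGCC as the last, on either strand. They lay in 1 leading window, 3.70%, against 3.005% of all genes. Among the 2559 genes of at least 50 CPM in PrTEC with 1 window, from which the leading genes were drawn, the shares were 12.6% for CHR, 40.1% for CCAAT, 5.98% for both and 6.06% for E2F letters. Of the 20 leading genes with a CHR match, 16 had it within 50 bases of the start, 80.0%, against 26.9% of all 4239 genes with a match. In the G2/M list, CHR lay in 31 of 42 windows (73.8%) and CHR with CCAAT in 25 (59.5%), shares near those of the leading genes. Most leading genes are themselves members of the G2/M list, so these shares are not independent of each other. In the S phase list, CHR lay in 4 of 28 windows (14.3%), CCAAT in 21 (75.0%) and E2F letters in 12 (42.9%). A match says only that the letters are there.

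The 250 bases before the start are shown for both marker genes and for Cdc20, as RefSeq gives them, with CHR and CCAAT matches of either strand in capitals.
Mki67 (chr7:135716380-135716629, minus strand): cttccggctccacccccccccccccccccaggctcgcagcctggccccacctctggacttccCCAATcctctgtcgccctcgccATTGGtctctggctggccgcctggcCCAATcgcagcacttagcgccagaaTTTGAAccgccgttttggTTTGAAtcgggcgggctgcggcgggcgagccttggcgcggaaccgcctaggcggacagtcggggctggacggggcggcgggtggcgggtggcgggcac
Top2a (chr11:99024190-99024439, minus strand): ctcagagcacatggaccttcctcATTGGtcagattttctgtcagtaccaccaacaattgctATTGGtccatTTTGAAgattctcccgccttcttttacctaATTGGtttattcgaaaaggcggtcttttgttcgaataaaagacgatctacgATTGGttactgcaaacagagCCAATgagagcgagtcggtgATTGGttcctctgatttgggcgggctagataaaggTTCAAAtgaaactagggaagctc
Cdc20 (chr4:118437344-118437593, minus strand): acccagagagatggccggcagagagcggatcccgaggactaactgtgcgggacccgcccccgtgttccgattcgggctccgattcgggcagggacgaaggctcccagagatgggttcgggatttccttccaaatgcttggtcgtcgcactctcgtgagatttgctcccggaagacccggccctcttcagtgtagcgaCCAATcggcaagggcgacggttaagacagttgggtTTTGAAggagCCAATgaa
The Mki67 window held 2 CHR and 3 CCAAT matches, that of Top2a 2 and 6, and that of Cdc20 1 and 2. The CHR match nearest the start began at position -98 in Mki67, -23 in Top2a and -18 in Cdc20, counted in bases from the start.

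Taken as whole lists, the G2/M genes set PrTEC apart more than the S phase genes did. The 54 G2/M genes summed to 12384 ± 1004 CPM in PrTEC, with the 6 libraries between 11451 and 14213 CPM, and to means of 1542 to 2305 CPM in the other 6 TEC labels. 53 of the 54 were higher in PrTEC than in the highest other TEC label, with a median difference of 2.14. The 44 S phase genes summed to 2143 ± 441 CPM in PrTEC and to means of 694 to 1179 CPM elsewhere in TEC. 37 of the 44 were highest in PrTEC, with a median difference of 0.45. Within single libraries, with the highest other label taken in each, this S phase median ran from -0.15 to 0.33. The G2/M median ran from 1.64 to 2.23 in the same way. Over the 4028 genes at 50 CPM or more, 25.7% were highest in PrTEC and the median difference was -0.25. Among single S phase genes, Tyms, which makes thymidylate, stood at 78.4 ± 13.7 CPM in PrTEC, at 30.5 CPM in nTEC and at 25.04 ± 8.02 CPM in ItTEC. Mcm6, a helicase subunit, was at 39.5 ± 21.9 CPM in PrTEC and 41.8 ± 42.3 CPM in ItTEC, within the spread of either.

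**Figure D1:**
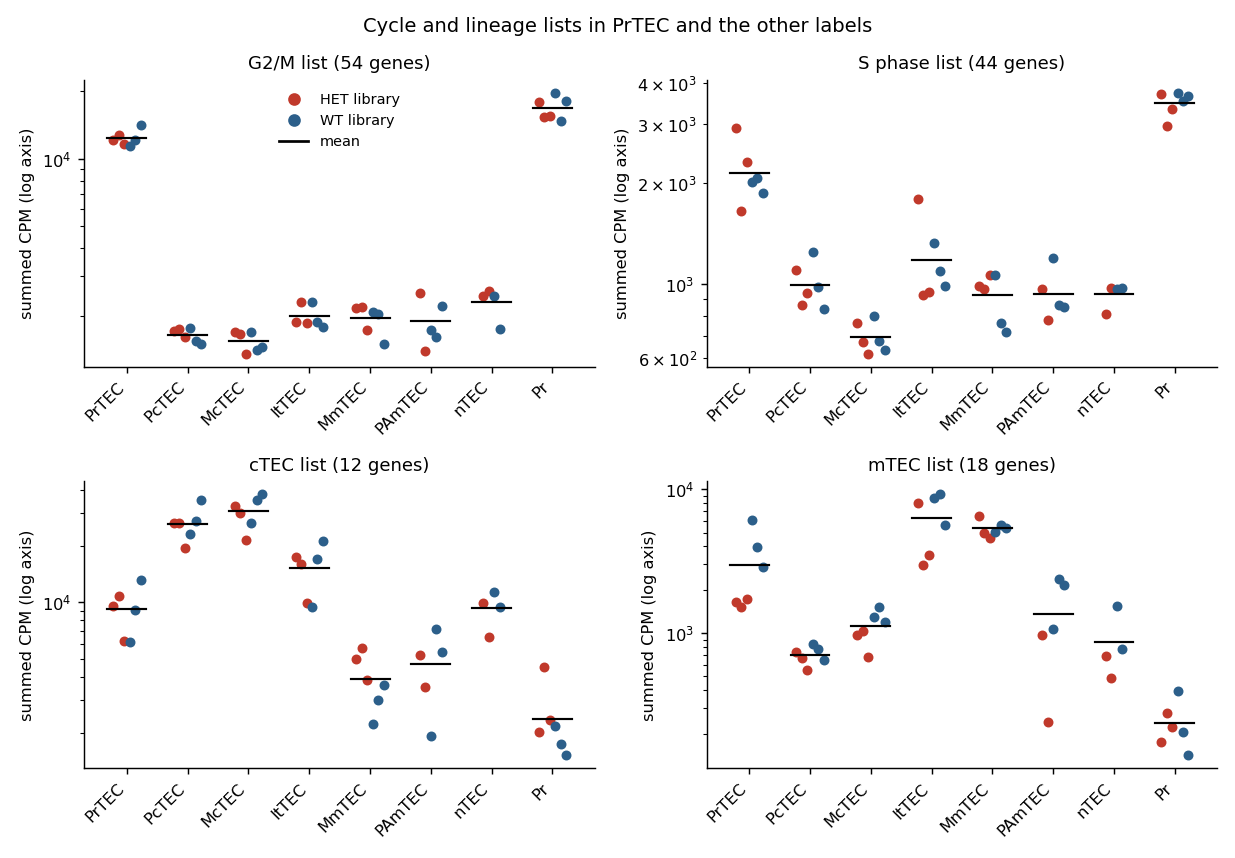
Summed CPM of 4 gene lists (log axes) in each label, 1 point per library with at least 10 cells, HET in red and WT in blue, with black bars for means. The G2/M list stands at 11451 to 14213 CPM in PrTEC, above every library of the other TEC labels, while the cTEC list lies below that of PcTEC and McTEC and the mTEC list is lower in the 3 HET than in the 3 WT libraries of PrTEC. In the WT libraries of PrTEC, Ccl21a alone makes up 3954, 1728 and 1512 CPM of mTEC list sums of 6076, 3938 and 2858 CPM.

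Of the cycle regulators (27 genes), 15 were highest in PrTEC, and the list summed to 2290 ± 199.6 CPM. The sum was 1007 to 1793 CPM in PcTEC, McTEC, ItTEC and MmTEC, 2422 ± 751 CPM in nTEC and 5172 ± 3993 CPM in PAmTEC, so PrTEC did not have the highest sum. The list joins cyclins and their kinases with inhibitors such as Cdkn1b and Cdkn1c, so a high sum need not mean more cycling. The PAmTEC mean owes much to WT replicate 3 at 12146 CPM, and was 3429 ± 994 CPM over the other 4 libraries. Ccnd2, a D-type cyclin, stood at 721 ± 166.5 CPM in PrTEC, 739 ± 262 CPM in MmTEC and 407 ± 51.2 CPM in PcTEC. Cdkn1c, an inhibitor of cyclin-dependent kinases, was at 208 ± 52.8 CPM in PrTEC and at 932 ± 338 CPM in Pr, and the p53 target Cdkn1a was at 25.7 ± 7.51 CPM in PrTEC. None of the 12 p53 targets was highest in PrTEC, nor any of the 14 growth factor receptors. Fgfr2, the receptor for the keratinocyte growth factors, stood at 123 ± 25.7 CPM in PrTEC against 204 ± 34.6 CPM in PcTEC.

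Cell by cell, at 2000 UMIs each, the median PrTEC cell held 24 UMIs of the G2/M list and the 10th percentile was 12. In PcTEC, McTEC, ItTEC and MmTEC the median cell held 3. Of 6531 other TEC cells of at least 2000 UMIs, 8 (0.122%) reached the PrTEC median. For the S phase list the median was 3 UMIs in PrTEC and 1 in PcTEC, and 26.3% of PcTEC cells reached the PrTEC median. The label, drawn from these same transcripts, held nearly all TEC cells that reached 24 UMIs of the G2/M list. The S phase cutoff of 3 UMIs is much lower, and 56.1% of PrTEC cells reached it. The shares at these unlike cutoffs cannot be compared, and 3 UMIs do not show that a cell is in S phase.

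**Figure D2:**
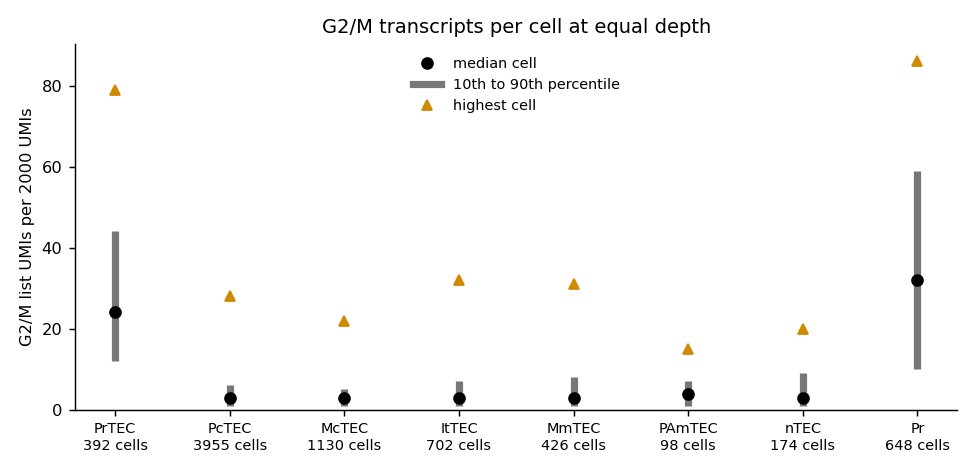
UMIs of the G2/M list per cell after thinning each cell to 2000 UMIs, as the median, the 10th to 90th percentile range and the highest cell of each label (linear axis). The PrTEC median of 24 lies above the 90th percentile of each other TEC label and under the median of 32 in Pr.

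The cTEC list was lower in PrTEC than in both cTEC labels and the mTEC list lower than in ItTEC and MmTEC. The cTEC list (12 genes) summed to 9163 ± 2731 CPM in PrTEC, 26325 ± 5254 CPM in PcTEC and 30548 ± 5847 CPM in McTEC, the mature cTEC. Most of the PrTEC sum was Ctsl, which alone averaged 6565 CPM in the HET and 7040 CPM in the WT libraries. The mTEC list (18 genes) summed to 2965 ± 1785 CPM in PrTEC, 6330 ± 2697 CPM in ItTEC, the intertypical TEC, and 5370 ± 662 CPM in MmTEC, the mature mTEC. Prss16, a thymus-specific serine protease of cTEC, stood at 525.9 ± 149.9 CPM in PrTEC against 2311 ± 168.1 CPM in PcTEC. Aire stood at 316 ± 146.1 CPM in PrTEC, 1846 ± 470 CPM in MmTEC and 6.27 ± 4.44 CPM in PcTEC. Foxn1, the master regulator of TEC, differed little, at 83.9 ± 14.9 CPM in PrTEC, 118 ± 22.5 CPM in PcTEC and 87.3 ± 32.2 CPM in MmTEC. MHC class II genes (9) summed to 14951 ± 2944 CPM in PrTEC and 14104 ± 3030 CPM in PcTEC.

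In the authors' clusters, 281 PrTEC cells lay in cluster 17, 25.7% of them in cluster 13, 39 in cluster 14, 26 in cluster 9, 12 in cluster 3 and 4 in cluster 8. Cluster 13 also holds 509 of the 518 MmTEC, cluster 14 holds 427 ItTEC, and cluster 17 holds 80 PcTEC. Clusters were made from the same transcripts, so their levels are descriptions, over libraries with at least 5 PrTEC cells of the cluster.

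PrTEC cells of cluster 17 had the cTEC list at 12617 ± 3244 CPM, Prss16 at 726 ± 138.8 CPM and Aire at 8.12 ± 13.4 CPM (n = 6). Those of cluster 13 had Aire at 1023 ± 317 CPM, Fezf2 at 344 ± 182.1 CPM, Spib, a transcription factor of mTEC, at 184.8 ± 42.5 CPM and MHC class II at 23062 ± 4568 CPM, with the cTEC list at 2440 ± 944 CPM (n = 6). Those of cluster 14 had Ccl21a at 13146 ± 3234 CPM and the basal keratins Krt5 and Krt14 at 1748 ± 691 and 1146 ± 752 CPM, with Aire at 9.16 ± 8.99 CPM (n = 3, all WT libraries, since no HET library had 5 such cells). The G2/M list was at 15228 ± 1451 CPM in cluster 17, 8669 ± 921 CPM in cluster 13 and 11267 ± 819 CPM in cluster 14. The S phase list differed less, at 2191 ± 531, 2113 ± 255 and 1929 ± 881 CPM. Of the cTEC list, Ctsl alone averaged 9419 CPM in cluster 17 and 1568 CPM in cluster 13.

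Aire and Ccl21a at these levels lay in different single cells. 75 PrTEC cells had at least 2 UMIs of Aire and 40 had at least 10 UMIs of Ccl21a, and 0 cells had both. Free RNA from burst cells is not removed from these counts. At least 2 UMIs of the cTEC genes Psmb11, Prss16 and Ccl25 summed were found in 29 of the 75 Aire cells and 25 of the 40 Ccl21a cells. The share was 62.8% over all 487 PrTEC, but also 35.3% in Pr and 47.1% in Thy at median depths of 3600 and 2071 UMIs, which should lack these genes. The part of free RNA in the cTEC counts was not tested. Aire was found in 22.2% of PrTEC cells and in 1.58% of Pr, which should lack it, at median depths of 3410 and 3600 UMIs.

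**Figure D3:**
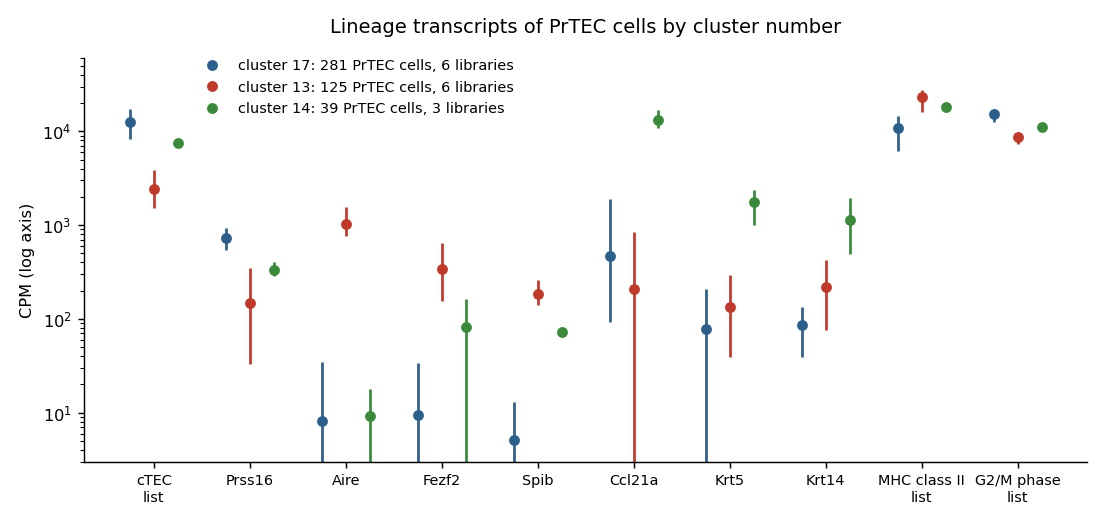
CPM (log axis) of lineage genes and lists in PrTEC cells of clusters 17, 13 and 14, as means (points) and ranges (lines) over libraries with at least 5 such cells; lines that reach the lower edge run to under 3 CPM. Aire averages 1023 CPM in cluster 13 and Ccl21a 13146 CPM in cluster 14, against 8.12 and 9.16 CPM of Aire in clusters 17 and 14 of those cells. Ccl21a averages 172.7 CPM in cluster 17 without WT replicate 1 (1917 CPM) and 78.7 CPM in cluster 13 without WT replicate 2 (854 CPM).

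Genotypes were compared on the summed UMIs of PrTEC with edgeR's quasi-likelihood test (n = 3 HET against 3 WT libraries, 5572 genes tested). 6 genes were higher and 3 lower in HET at an adjusted p under 0.05, which is 0.162% of the genes tested, 0.108% higher and 0.0538% lower. 445 genes were higher and 299 lower at an unadjusted p under 0.05 (13.4% of those tested), and DESeq2 called 1 higher and 3 lower. The study's methods give n = 3 for each genotype, the number of libraries, but no source used here says outright that each library is 1 animal.

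The 3 genes lower in HET were Ccl21a, Krt14 and Wfdc18. Ccl21a had 358, 255 and 117 CPM in the HET libraries and 3954, 1728 and 1512 CPM in WT. The highest HET library lay under the lowest WT library, and the log2 fold change was -3.31 ± 0.38 (SE, edgeR adjusted p = 3.87e-05). Ccl21a has near-identical gene copies, so its reads may be shared with them. Krt14, a keratin of basal epithelium, had 85.5, 105 and 70.2 CPM in HET and 271, 329 and 311 CPM in WT. The groups did not overlap, and the log2 fold change was -1.80 ± 0.30 (edgeR adjusted p = 0.0030). Wfdc18, a secreted protein with a protease inhibitor fold, had 69.99, 68.5 and 23.4 CPM in HET and 159, 268 and 162.8 CPM in WT, a log2 fold change of -1.85 ± 0.36 (edgeR adjusted p = 0.0228). Leaving out 1 library at a time, the Krt14 call was lost without HET replicate 3 (-1.70, edgeR adjusted p = 0.0548) and the Wfdc18 call without HET replicate 3 (-1.58, edgeR adjusted p = 0.216) and without WT replicate 2 (-1.55, edgeR adjusted p = 0.0951). Among PrTEC, Wfdc18 averaged 667 CPM in cluster 14, 239.5 CPM in cluster 13 and 9.32 CPM in cluster 17. Outside PrTEC, the Wfdc18 log2 fold change was 0.74 ± 0.33 in MmTEC, 0.57 ± 0.50 in PcTEC, 0.37 ± 0.63 in ItTEC and 0.0045 ± 0.42 in McTEC. That of Krt14 was -0.55 ± 0.36 in MmTEC, -0.53 ± 0.41 in ItTEC, -0.42 ± 0.35 in McTEC and -0.07 ± 0.26 in PcTEC. None of these was called (lowest edgeR adjusted p 0.481). Krt5, the partner keratin of Krt14, had 233, 107.7 and 93.6 CPM in HET and 258, 428 and 299 CPM in WT but did not pass (log2 fold change -1.31 ± 0.33, edgeR adjusted p = 0.206).

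The Ccl21a difference lay in few cells, and the libraries took their PrTEC from the clusters in unequal shares. Cluster 14, where Ccl21a, Krt5, Krt14 and Wfdc18 were high, held 4.76%, 2.63% and 0% of PrTEC cells in the HET libraries (2, 3 and 0 cells) and 5, 12 and 17 cells in WT (13.8% and 11.4% of PrTEC in WT replicates 2 and 3). Cluster 17 held 76.2%, 55.3% and 52.7% in HET and 47.5%, 47.1% and 65.1% in WT, with overlap. The part of these shares in the genotype results was not tested. At least 10 UMIs of Ccl21a were found in 2.38%, 3.51% and 0% of PrTEC cells of the HET libraries (1, 4 and 0 cells) and in 5, 13 and 17 cells of WT (14.9% and 11.4% of PrTEC in WT replicates 2 and 3). A single cell held 311 of the 598 Ccl21a UMIs of WT replicate 1. With cells thinned to 2000 UMIs, 2.62% ± 2.44 of HET and 14.4% ± 2.90 of WT PrTEC cells had at least 5 UMIs, and the groups did not overlap (two-sided exact permutation p = 0.10, the smallest that 3 against 3 allows). Among PrTEC cells of cluster 17 alone, an alternative chosen after seeing the data, Ccl21a had a log2 fold change of -2.08 that was not called (edgeR adjusted p = 0.192). Ccl21a stood there at 118.1, 223.5 and 93.3 CPM in HET and at 1917, 137.6 and 291 CPM in WT, so the groups overlapped and WT replicate 1 lay far above the other 5 libraries. In the same cells the Krt14 log2 fold change was -0.54 and that of Krt5 0.031. This fit leaves out the cells of cluster 14, where these genes were high, so it cannot tell the part of the cluster shares. In PrTEC cells of cluster 13, Ccl21a stood at 0, 23.5 and 77.1 CPM in HET and at 180.98, 853.8 and 111.997 CPM in WT. Krt14 stood there at 141.2, 164.5 and 77.1 CPM in HET and at 312.6, 429.9 and 188.995 CPM in WT. The groups did not overlap for these genes, whereas those of Krt5 and Wfdc18 overlapped. The libraries held 8 to 32 such cells, and a genotype difference within cluster 13 was not tested. Outside PrTEC, the Ccl21a log2 fold change was -0.72 ± 0.46 in ItTEC, -0.85 ± 0.32 in McTEC, -0.59 ± 0.34 in PcTEC, 0.50 ± 0.64 in MmTEC and -0.91 ± 0.44 in the nonepithelial Pr (49.8 CPM in HET and 116.4 CPM in WT). None was called by edgeR (lowest adjusted p 0.645), where 0.148% of genes were called in MmTEC, 0.0411% in Pr and 0% in the other 3.

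Of the 18 mTEC genes 12 were tested, 10 had a negative and 2 a positive log2 fold change, where 2828 of all 5572 genes had a negative one. 2 were called lower (Ccl21a and Krt14) and 0 higher, 3 had HET libraries all below WT, and the median log2 fold change was -0.31 against -0.01 over all genes tested. Over all genes, 17.4% had groups that did not overlap, 8.72% with HET above and 8.72% with HET below. Aire had 257, 244.8 and 497 CPM in HET and 489, 275 and 132.5 CPM in WT, with full overlap (log2 fold change 0.23 ± 0.36, edgeR adjusted p = 0.786). Fezf2 had 38.9, 152 and 76.0 CPM in HET and 132.2, 241 and 62.9 CPM in WT. The 10 cTEC genes tested had 0 calls, 8 negative and 2 positive log2 fold changes and a median of -0.26, and the 9 MHC class II genes 0 calls, 8 negative and 1 positive and a median of -0.32. Summed, the cTEC to mTEC UMI ratio was 2.52, 2.83 and 1.83 (log2) in HET and 0.02, 1.21 and 2.21 in WT, a difference of 1.25 (exact permutation p = 0.20), and 0.23 (exact permutation p = 0.80) without the 2 genes with most UMIs of each list.

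Of the pan-TEC genes, 10 of 11 were tested and 0 called. Epcam had 949, 1006 and 713 CPM in HET and 1402, 1432 and 1550 CPM in WT. The HET libraries were all lower, but the log2 fold change of -0.74 ± 0.27 did not pass (edgeR adjusted p = 0.289). Trp63, a transcription factor of epithelial progenitors, had 226, 220 and 292 CPM in HET and 165, 132.1 and 174 CPM in WT (log2 fold change 0.61 ± 0.28, edgeR adjusted p = 0.360).

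6 genes were higher in HET. Meg3, a maternally expressed noncoding RNA, had 85.5, 247 and 368 CPM in HET and 33.1, 35.6 and 33.7 CPM in WT. Every HET library was above the WT libraries (log2 fold change 2.76 ± 0.39, edgeR adjusted p = 7.65e-04). Meg3 is abundant in nonepithelial cells, at 4063 CPM in Pr of HET and 2897 CPM in Pr of WT. The fibroblast list summed to 599, 1765 and 1327 CPM in PrTEC of HET and 879, 442 and 657 CPM in WT, and 5 of its 8 genes were tested, with 0 calls and a median log2 fold change of 1.023. In the 2 libraries with at least 5 PrTEC cells of cluster 9 the fibroblast list averaged 6534 CPM in those cells. Cluster 9 also holds 238 of the 252 nTEC, a TEC label in which the fibroblast list averaged 10103 CPM. In PrTEC cells of cluster 17 the fibroblast list averaged 774 CPM. Meg3 had 108.3, 265.7 and 548 CPM in HET and 50.9, 21.5 and 27.7 CPM in WT of these cluster 17 cells. The log2 fold change there was 3.43 ± 0.49 (edgeR adjusted p = 2.24e-04), in a fit chosen after seeing the data. The part of fibroblast RNA in the Meg3 result was not tested. In other labels the Meg3 log2 fold change was 1.70 ± 0.38 in ItTEC, 1.45 ± 0.32 in McTEC, 1.40 ± 0.39 in PcTEC, 0.61 ± 0.48 in MmTEC and 0.49 ± 0.33 in Pr, none of them called (lowest edgeR adjusted p 0.556).

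Opcml, a GPI-anchored cell adhesion molecule, had 233, 198 and 251 CPM in HET and 66.1, 73.4 and 96.5 CPM in WT (log2 fold change 1.41 ± 0.30, edgeR adjusted p = 0.0415). Snhg11, a noncoding RNA, had 109, 90.6 and 146.2 CPM in HET and 52.9, 23.1 and 28.1 CPM in WT (log2 fold change 1.84 ± 0.38, edgeR adjusted p = 0.0386). Mylk, myosin light chain kinase, had 69.99, 80.8 and 93.6 CPM in HET and 26.4, 25.2 and 15.7 CPM in WT (log2 fold change 1.93 ± 0.40, edgeR adjusted p = 0.0386). For these 3 the groups did not overlap, and each call was lost in 9 of 14 alternatives. Their log2 fold changes over those alternatives ran from 1.26 to 1.68 for Opcml, from 1.60 to 2.05 for Snhg11 and from 1.68 to 2.10 for Mylk. The adjusted p over those alternatives ran from 0.0138 to 0.314 for Opcml, from 0.0115 to 0.366 for Snhg11 and from 0.0243 to 0.301 for Mylk. In other labels Mylk had a log2 fold change of 0.47 ± 0.23 in PcTEC, 0.58 ± 0.32 in McTEC, 0.83 ± 0.33 in ItTEC and 1.25 ± 0.55 in MmTEC, and 0.02 ± 0.27 in Pr, where it stood at 412 CPM in HET and 400.2 CPM in WT. Opcml had 0.44 ± 0.30 in PcTEC, 0.47 ± 0.38 in McTEC, -0.21 ± 0.39 in ItTEC and 1.13 ± 0.66 in MmTEC, and Snhg11 0.37 ± 0.30 in PcTEC, 0.61 ± 0.40 in McTEC and -0.08 ± 0.49 in ItTEC. None of these was called (lowest edgeR adjusted p 0.476). Opcml and Snhg11 did not pass the filter on low counts in Pr, but both stood higher in the cTEC labels than in PrTEC. Opcml averaged 674 CPM in HET and 483 CPM in WT of PcTEC, and 789 and 578 CPM in McTEC. Snhg11 averaged 546 and 413 CPM in PcTEC, and 943 and 624 CPM in McTEC. The part of fibroblast RNA, which was higher in HET replicates 2 and 3 than in the WT libraries, was not tested for these 3 genes either.

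The remaining 2 genes were the globins Hbb-bs and Hba-a1, whose fold in PrTEC owes most of its size to 1 cell. Hbb-bs had 12069, 112.6 and 70.2 CPM in HET and 0, 18.9 and 20.2 CPM in WT, and Hba-a1 5972, 73.4 and 52.6 CPM against 0, 10.5 and 8.98 CPM. A single PrTEC cell of HET replicate 1 held 3108 globin UMIs among its 4896, which is 93.4% of the globin UMIs of all PrTEC. Without that cell HET replicate 1 had 8.08 CPM of each gene, neither gene passed the filter on low counts, and 4 genes were higher and 3 lower. Without the whole of HET replicate 1, both stayed called at a smaller fold, with a log2 fold change of 2.86 for Hba-a1 and 2.42 for Hbb-bs (edgeR adjusted p = 0.0402 for each) against 7.76 and 7.80 with it. Reads of these globins may be shared with near-identical copies.

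**Figure D4:**
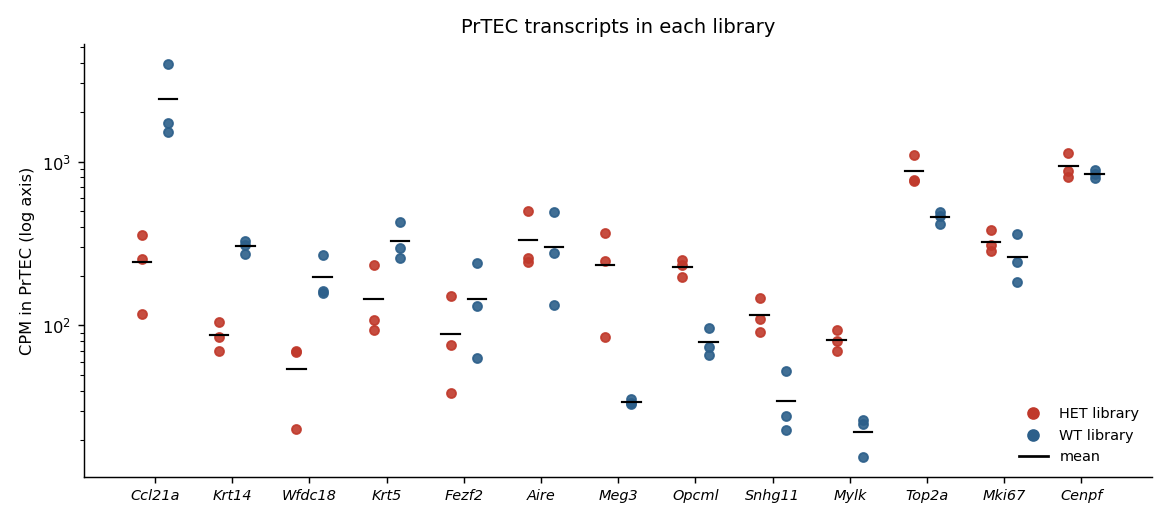
CPM in PrTEC (log axis) of 13 genes in each of the 3 HET (red) and 3 WT (blue) libraries, with black bars for means. Ccl21a, Krt14, Wfdc18 and Krt5 lie lower in every HET library, Meg3, Opcml, Snhg11, Mylk and Top2a higher, and Aire, Fezf2, Mki67 and Cenpf overlap.

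Cycle genes gave no call. 52 of the 54 G2/M genes were tested, 28 with a positive and 24 with a negative log2 fold change and a median of 0.09. 5 had HET libraries all above and 4 all below WT, where 8.72% of all genes did so in each direction. Of the 44 S phase genes 26 were tested, 0 were called, and the median was -0.21. Mki67 had 381, 284 and 310 CPM in HET and 364, 243 and 183 CPM in WT, which overlap (log2 fold change 0.33 ± 0.28, edgeR adjusted p = 0.612). Top2a had 770, 761 and 1093 CPM in HET and 489, 465 and 413 CPM in WT. Its groups did not overlap, but the log2 fold change of 0.93 ± 0.27 did not pass (edgeR adjusted p = 0.253). With cells thinned to 2000 UMIs, Top2a was found in 51.5%, 57.8% and 57.5% of PrTEC cells in HET and 55.2%, 36.8% and 35.1% in WT, which overlap. Hmgb2, a chromatin protein of dividing cells, went the other way, with 1680, 2000 and 1362 CPM in HET and 2195, 2585 and 3133 CPM in WT (log2 fold change -0.68 ± 0.28, edgeR adjusted p = 0.320). The log2 ratio of S phase to G2/M UMIs was -2.05, -2.95 and -2.33 in HET and -2.50, -2.56 and -2.92 in WT, a difference of 0.22 (exact permutation p = 0.50).

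Whether the genotype difference in PrTEC differs from that in PcTEC was tested with edgeR in 1 model with the library as a term (10882 genes). 18 genes had a lower and 1 a higher difference in PrTEC, 0.175% of the genes tested. The difference of the log2 fold changes was -2.76 ± 0.21 for Ccl21a, -1.83 ± 0.25 for Krt14, -2.62 ± 0.37 for Wfdc18, -1.01 ± 0.23 for Krt5 and -2.05 ± 0.47 for Fezf2 (edgeR adjusted p 2.65e-12 to 0.0496). Among cycle genes it was -1.68 ± 0.36 for Nusap1, a microtubule-bundling protein, -1.37 ± 0.30 for Ube2c, the ubiquitin-conjugating enzyme of mitotic exit, and -0.73 ± 0.17 for Hmgb2 (edgeR adjusted p 0.0315 to 0.0491). None of these 3 was called within either label. The log2 fold changes of Nusap1 and Ube2c were -0.24 ± 0.30 and -0.39 ± 0.33 in PrTEC, where the groups overlapped, and 1.26 ± 0.42 and 0.84 ± 0.35 in PcTEC, where they averaged 9.12 and 19.1 CPM in HET and 4.002 and 10.7 CPM in WT. Hmgb2 had -0.68 ± 0.28 in PrTEC (edgeR adjusted p = 0.320) and -0.011 ± 0.23 in PcTEC, and Fezf2 had -0.53 ± 0.42 in PrTEC, with overlap. Genes could enter this model through their counts in 1 label. Fezf2 did not pass the filter on low counts in PcTEC alone. In PcTEC, Wfdc18 averaged only 13.1 CPM in HET and 8.24 CPM in WT (log2 fold change 0.57 ± 0.50). For Fezf2 and Wfdc18, and for Nusap1 and Ube2c at the PcTEC levels given above, the difference thus rests in part on few PcTEC counts. Snhg11 was the 1 gene with a higher difference (1.41 ± 0.30, edgeR adjusted p = 0.0223), and Meg3 did not differ detectably (0.87 ± 0.30, edgeR adjusted p = 0.638). With the replicate number in place of the library, 0 genes were higher and 1 lower.

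PrTEC made up 5.17%, 4.43% and 4.20% of TEC cells in HET and 6.01%, 6.39% and 6.31% in WT. Every HET library was lower, and the means were 4.60% ± 0.51 and 6.23% ± 0.20. The exact binomial 95% intervals, which cover counting error only, ran from 3.18 to 6.93% over the HET and from 4.33 to 8.09% over the WT libraries. The edgeR test on cell numbers gave a log2 fold change of -0.44 ± 0.19 that did not pass over the 9 TEC labels (edgeR adjusted p = 0.460), and the exact permutation p on log2 shares was 0.10, the smallest possible. Of all labelled cells, PrTEC were 2.49%, 2.14% and 1.67% in HET and 1.68%, 2.79% and 2.63% in WT, which overlap.

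The 30 leading genes were then read in sorted WT cTEC and mTEC at P0 and 4 weeks, samples that played no part in choosing them. In bulk samples, fewer cells of a type and less RNA per cell cannot be told apart. Psmb11, a thymoproteasome subunit, had medians of 388 CPM at P0 and 1263 CPM at 4 weeks in cTEC and of 9.59 and 3.099 CPM in mTEC. Aire had medians of 0 CPM at both ages in cTEC and of 242 and 200.01 CPM in mTEC. Markers of the other lineage moved with age in both sorts: the medians of Ccl21a in cTEC were 233 CPM at P0 and 2193 CPM at 4 weeks, without overlap, those of Krt5 in cTEC 111 and 213.9 CPM, and those of Prss16 in mTEC 529 and 48.8 CPM. Their part in the age differences of the leading genes was not tested. All 30 genes were tested in both (edgeR, n = 6 against 6).

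In cTEC, 9 of the 30 leading genes rose from P0 to 4 weeks, 0 fell and the rest did not pass, where 12.3% of 13037 genes rose and 9.99% fell, and the median log2 fold change was 0.74 against 0.01 over all genes. Top2a had a lowest value, median and highest value of 21.1, 44.6 and 79.9 CPM at P0 and of 69.9, 193 and 226 CPM at 4 weeks. Its ranges overlapped only at their edges (log2 fold change 1.95 ± 0.32, edgeR adjusted p = 5.82e-04). Birc5, survivin of the chromosomal passenger complex, had 6.13, 11.7 and 21.5 CPM at P0 and 27.1, 41.6 and 60.8 CPM at 4 weeks, without overlap (1.80 ± 0.32, edgeR adjusted p = 0.0012). Nusap1 rose by 1.63 ± 0.40, Ube2c by 2.01 ± 0.50, Stmn1, which destabilises microtubules, by 0.98 ± 0.24 and Hmgb2 by 0.85 ± 0.28 on the log2 scale (edgeR adjusted p 0.0084 to 0.0397). Ccnb1 had 0.27 ± 0.22 and Cdc20 0.40 ± 0.24 and did not pass.

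In mTEC, 5 of the 30 fell from P0 to 4 weeks, 0 rose and the rest did not pass, where 2.35% of 15883 genes fell and 3.64% rose, and the median log2 fold change was -1.01 against -0.06 over all genes. Ccnb2, cyclin B2, had 76.7, 128 and 160 CPM at P0 and 16.7, 41.4 and 60.2 CPM at 4 weeks, without overlap (log2 fold change -1.60 ± 0.29, edgeR adjusted p = 0.0045). Hmmr had 48.6, 56.0 and 65.1 CPM at P0 and 14.5, 23.2 and 32.6 CPM at 4 weeks (-1.29 ± 0.25, edgeR adjusted p = 0.0069). Hmgb2, Stmn1 and Cdc20 had -1.03 ± 0.19, -1.03 ± 0.25 and -0.85 ± 0.22 (edgeR adjusted p 0.0052 to 0.0328). Mki67 had 6.62, 17.1 and 24.5 CPM at P0 and 0, 0.43 and 5.41 CPM at 4 weeks, without overlap, and did not pass (-3.19 ± 1.05, edgeR adjusted p = 0.0988). 1 of the 4-week mTEC libraries, of the lowest depth, had 11 of the 30 genes at 0, and without it 8 fell.

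The difference between the cell types was tested with an interaction of cell type and age over the 24 libraries, chosen after seeing the data. 10 of the 30 leading genes had a lower age difference in mTEC than in cTEC and 0 a higher one, where 4.33% of 17284 genes had a lower one. The difference was -2.94 ± 0.50 for Top2a, -2.45 ± 0.45 for Ccnb2, -2.65 ± 0.47 for Birc5 and -2.04 ± 0.36 for Stmn1 (edgeR adjusted p 6.56e-04 to 0.0015). Whether cTEC and mTEC libraries came from the same mice is not given in the sources used here, but the sample numbers in their titles run in parallel, with a constant step of 12. With a block for the 12 pairs this step gives, also chosen after seeing the data, 9 of the 10 genes kept their call (adjusted p from edgeR 0.00917 to 0.0337). Cenpf lost its call but not its size, with a difference of -4.43 against -3.82 without the block (edgeR adjusted p = 0.0648). The 2 libraries of a pair did not deviate together (correlation of their deviations from the group means over genes -0.035 to 0.080).

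**Figure D5:**
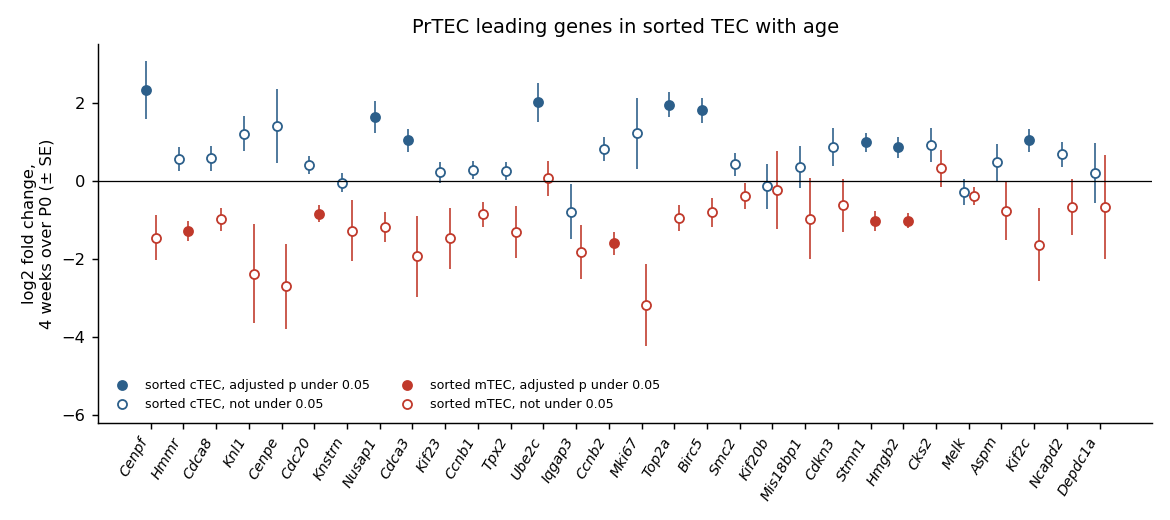
Log2 fold change from P0 to 4 weeks (± SE, n = 6 against 6) of the 30 leading genes of PrTEC in sorted cTEC (blue) and mTEC (red), filled where the edgeR adjusted p is under 0.05. 9 cTEC values are filled and all are above 0, and 5 mTEC values are filled and all are below 0.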

How the data were processed

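Single-cell counts: the authors deposited raw UMI counts for every cell and gene, made with Cell Ranger 3.1.0 after removing cells of few genes or many mitochondrial UMIs and doublets (DoubletFinder), with no normalization. Cell labels and cluster numbers were the authors', from integration and label transfer, and were used unchanged, so no doublet caller was run here. Bulk counts: the authors deposited whole read counts per gene. The submitters' processing notes name STAR 2.5.3a and HTSeq. Rows that name no gene, 10.2 to 14.5% of counts, were left out, and libraries kept 5785350 to about 13355000 gene counts. The submitters' notes list mm10 among the builds, and promoter windows came from RefSeq on GRCm38.p6.

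UMIs were summed per label and library. edgeR 4.0.16 (R 4.3.3; filterByExpr, TMM, quasi-likelihood test, Benjamini-Hochberg over all genes tested, threshold 0.05) was the main test, and DESeq2 1.42.0 an alternative. SE is the log2 fold change divided by the root of the quasi-likelihood F. Levels, thinning, exact permutation tests (two-sided) and figures used Python 3.11.15, numpy 2.4.6, scipy 1.17.1 and matplotlib 3.10.9. The edgeR tests of PrTEC genotype and of bulk cTEC age were run on simulated counts. These were drawn per library with the same dispersion for every gene, so they do not cover genes whose counts lie mostly in single cells. Named genes are those called between genotypes whose groups do not overlap, Tbx1, Crkl, the 30 leading genes and members of the lists. The label, the lists and the tests were chosen with earlier results of these data known. Depth limits genes of few UMIs most: 5572 genes passed the filter in PrTEC against 11954 in PcTEC. Alternatives were other size factors, no filter, deeper cells, cells without Ptprc, a replicate block, leaving out libraries, other pseudocounts and, added after seeing the data, leaving out the globin-rich cell or all cells outside cluster 17.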

Additional observations from a re-analysis of the deposited data

Results flagged for a closer look

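Values far from the other samples of their group were looked for in 67 groups of 6 libraries, of which about 1 in 20 is flagged by chance, and 4 were found. The thymocyte list summed to 323 CPM in PrTEC of HET replicate 2, where the next library had 92.6 CPM. The erythroid list summed to 24240 CPM in HET replicate 1, where the next had 327 CPM, and this is the cell with 3108 globin UMIs. In bulk, Top2a was at 101.3 CPM in 1 of the 4-week mTEC libraries, where the next had 57.3 CPM, and Ube2c at 31.8 CPM in 1 of the P0 mTEC libraries, where the next had 21.4 CPM.

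The genotype difference differed between PrTEC and PcTEC for 19 genes by the edgeR interaction (adjusted p 2.65e-12 to 0.0496), as a log2 difference of PrTEC less PcTEC. It was -2.76 for Ccl21a, -1.83 for Krt14, -2.62 for Wfdc18, -1.01 for Krt5 and -2.05 for Fezf2. It was -1.87 for Ubd, -1.80 for Il4i1, -1.80 for Cxcl9, -3.35 for Mndal, -1.26 for Cyba and -1.10 for Srgn. It was -1.24 for Hist1h2ap, a histone of a multigene family, -1.68 for Nusap1, -1.37 for Ube2c and -0.73 for Hmgb2. It was -1.46 for Tpm2, -1.13 for Rgs5 and -0.99 for Mt2, and 1.41 for Snhg11. Ubd, Il4i1, Cxcl9, Mndal, Cyba, Srgn, Hist1h2ap, Tpm2, Rgs5 and Mt2 are in none of the gene lists and were named after their values were seen. Fezf2 did not pass the filter on low counts in PcTEC alone, and Wfdc18 averaged 13.1 CPM in HET and 8.24 CPM in WT of PcTEC. Nusap1 averaged 9.12 CPM in HET and 4.002 CPM in WT of PcTEC, and Ube2c 19.1 and 10.7 CPM.

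The age difference differed between bulk mTEC and cTEC for 10 of the 30 leading genes (edgeR adjusted p 6.56e-04 to 0.0409), as a log2 difference of mTEC less cTEC. It was -3.82 for Cenpf, -1.87 for Hmmr, -1.60 for Cdca8, -1.28 for Cdc20, -2.86 for Nusap1, -2.45 for Ccnb2, -2.94 for Top2a, -2.65 for Birc5, -2.04 for Stmn1 and -1.91 for Hmgb2.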

How the results depend on the processing

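The PrTEC genotype calls of 6 genes higher and 3 lower changed with the processing. Higher and lower counts were 1 and 3 with DESeq2, 22 and 14 with no filter on low counts, 3 and 3 in cells with no UMI of Ptprc, 1 and 3 in cells of at least 2000 UMIs and 2 and 0 in cells of cluster 17. Leaving out 1 library gave 5 to 10 higher and 1 to 6 lower: 10 higher without HET replicate 2 and without WT replicate 1, 1 lower without HET replicate 3 and 6 lower without WT replicate 3. With the replicate number as a block, 3 genes were higher and 3 lower. The labels do not say that a number marks a shared litter or day. Same-numbered libraries did not deviate together (correlations -0.04, -0.02 and -0.36), but 3 libraries per genotype are too few to tell whether the numbers pair them. Meg3 kept its call in all 14 alternatives, Ccl21a in 13 of 14, Krt14 in 12 of 14 and Wfdc18 in 11 of 13. Krt14 lost its call without HET replicate 3 (edgeR adjusted p = 0.0548) and in cluster 17, and Wfdc18 lost its call without HET replicate 3 (edgeR adjusted p = 0.216) and without WT replicate 2 (edgeR adjusted p = 0.0951). Krt5, not called in the main fit, was called lower in 2 of 14 alternatives (lowest edgeR adjusted p 0.00986) and changed sign in cluster 17 (0.031). The interaction with PcTEC, 1 gene higher and 18 lower, gave 10 higher with no filter and 0 higher and 1 lower with the replicate block in place of the library. Leaving out 1 library gave 0 to 5 higher and 5 to 21 lower, with 5 lower without HET replicate 2 and 9 lower without HET replicate 3 and without WT replicate 2. The share of TEC cells stayed lower in HET and not past the threshold in all 10 alternatives (log2 -0.53 to -0.18), including -0.45 with the block. Both ratios kept their direction in all 8 but not their size. The S phase to G2/M ratio differed by 0.22, by 0.018 without HET replicate 1, 0.085 without WT replicate 3, 0.47 without HET replicate 2 and 0.038 without the 2 genes with most UMIs of each list, and the cTEC to mTEC ratio by 1.25 and by 0.69 without WT replicate 1. With the title prefix as a term, 8 leading genes rose in bulk cTEC and 5 fell in mTEC. In bulk mTEC, 8 leading genes fell with DESeq2 and 8 without the library with 11 genes at 0. The median difference of the G2/M list to the highest other TEC label was 2.98 with a pseudocount of 1 and 1.14 with 50, and that of the S phase list 0.16 with 50. The cause of these changes was not tested.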
